A study of Mus musculus with 12 samples.

Results

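The alarmin genes S100a8 and S100a9 and the stress keratin genes Krt16 and Krt17 are described here across keratinocytes of mouse skin. The 4 genes were taken by symbol, out of 30807 genes with a symbol on the array. They were chosen by symbol with earlier results in view, and selected on measured log2 signals: S100a8 and S100a9 differ strongly between arrays of 1 group. Their levels are therefore given first as a description of each array. Each gene is read by 1 transcript cluster, a set of probes summarized to 1 value, among 65956 clusters measured.

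Total RNA was hybridised to 12 arrays (Affymetrix MTA-1_0), with 3 arrays a group. The groups are basal keratinocytes of bitransgenic mice (bt), basal keratinocytes of wild-type mice (wt), suprabasal keratinocytes of bt mice and suprabasal keratinocytes of wt mice. All groups share the FVB/N strain, postnatal day 4 and skin as tissue, and the cells were sorted by flow cytometry. The title of the series names progerin, a truncated form of lamin A, but the labels give neither the transgenes nor the promoter that drives them, so what limits the bt mice as a model is not known here. Each array title carries a code such as X667_05, and 5 codes appear once in each layer. The labels do not say that codes are separate animals, so a p-value covers the spread among these arrays alone, which may be technical.

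S100a8 and S100a9 are small calcium-binding proteins that pair to form calprotectin, which binds zinc and manganese and acts outside the cell as an alarmin, a signal of damage. Neutrophils carry large amounts of them, and keratinocytes make them in wounds and inflamed skin. Krt16 and Krt17 are type I keratins that build filaments with a type II partner such as Krt6a or Krt6b. They are expressed in hair follicles and are switched on between follicles when epidermis is wounded or hyperproliferative.

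S100a8 and S100a9 lie 22.6 kb apart on chromosome 3 and are read from opposite strands. The S100a8 cluster spans chr3:90669071-90670034 on the plus strand with 30 probes, and the S100a9 cluster spans chr3:90692630-90695721 on the minus strand with 30 probes (mm10). Their promoters are shown because both genes go up and down together on the arrays. RefSeq windows of 300 bases on GRCm38.p6 were available here for these 2 of the 4 genes, at chr3:90668821-90669120 (plus strand) and chr3:90695672-90695971 (minus strand). Each runs 5′ to 3′ from 250 bases before the annotated start. Capitals mark matches to TATAAA, the TATA box, and to TTNNGNAA, a core that C/EBP factors can bind, on either strand.
S100a8: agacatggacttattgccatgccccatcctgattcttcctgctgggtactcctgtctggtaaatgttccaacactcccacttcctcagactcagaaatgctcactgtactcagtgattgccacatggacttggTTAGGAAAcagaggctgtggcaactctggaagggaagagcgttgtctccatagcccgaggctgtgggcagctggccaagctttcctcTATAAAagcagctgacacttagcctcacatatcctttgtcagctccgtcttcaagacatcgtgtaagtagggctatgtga
S100a9: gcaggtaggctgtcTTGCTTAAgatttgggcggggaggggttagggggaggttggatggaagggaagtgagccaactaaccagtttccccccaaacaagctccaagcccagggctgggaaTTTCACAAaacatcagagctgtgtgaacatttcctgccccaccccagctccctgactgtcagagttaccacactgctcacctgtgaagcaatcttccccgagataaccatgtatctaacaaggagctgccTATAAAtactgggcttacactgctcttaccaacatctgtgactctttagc

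The TATA match of S100a8 begins 30 bases before the annotated start, whereas that of S100a9 begins at base 251 of its window, the annotated start itself. S100a8 holds 1 C/EBP core, 117 bases before the start. S100a9 holds 2 such cores, 236 and 130 bases before the start, both on the other strand. A TATAAA is found on either strand in 13.6% of 32851 promoter windows of this length, and the C/EBP core in 40.7%. The AP-1 motif TGANTCA, present in 7.81% of windows, and the STAT motif TTCNNNGAA, present in 8.3%, are not spelled in either window. These are matches of letters and not measured binding sites.

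S100a8 had RMA signals of 10.74, 5.40 and 10.23 in bt basal arrays (codes X667_05, X721_05 and X722_07), on a log2 scale. The wt basal arrays had 4.01, 9.82 and 3.99 (X667_06, X682_11 and X721_08). In suprabasal cells S100a8 had 11.02, 10.69 and 6.39 in bt arrays (X667_05, X682_05 and X721_05), against 4.48, 9.79 and 4.29 in wt arrays. The groups overlapped in both layers: 1 array of each bt group was low and 1 array of each wt group was high. No array had a value between 6.39 and 9.79, so the 12 values fell into 2 separate sets of 6. A signal was read against a background mark, the 95th percentile of the intronic control probe sets of its array, which lay between 8.04 and 8.81. The 6 high arrays were above their mark and the 6 low arrays were not, so a low value gives only a bound on the level.

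S100a9, the partner in calprotectin, had signals of 10.42, 7.81 and 10.34 in bt basal arrays, against 6.23, 9.81 and 6.21 in wt basal arrays. It had 10.71, 10.64 and 8.02 in bt suprabasal arrays, against 6.65, 10.08 and 6.95 in wt suprabasal arrays. The arrays high and low in S100a9 were those high and low in S100a8, and again only the 6 high arrays were above their background mark. The high set spanned 9.81 to 10.71 and the low set 6.21 to 8.02. Within the 6 arrays highest in S100a8 the signals of both genes had a Pearson correlation of 0.92. Within the 6 lowest it was 0.94, but there neither gene is above its mark on any array, so it describes signals at background. A correlation over all 12 arrays would mostly measure the distance between the 2 sets, and arrays of 1 code are not independent.

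**Figure D1:**
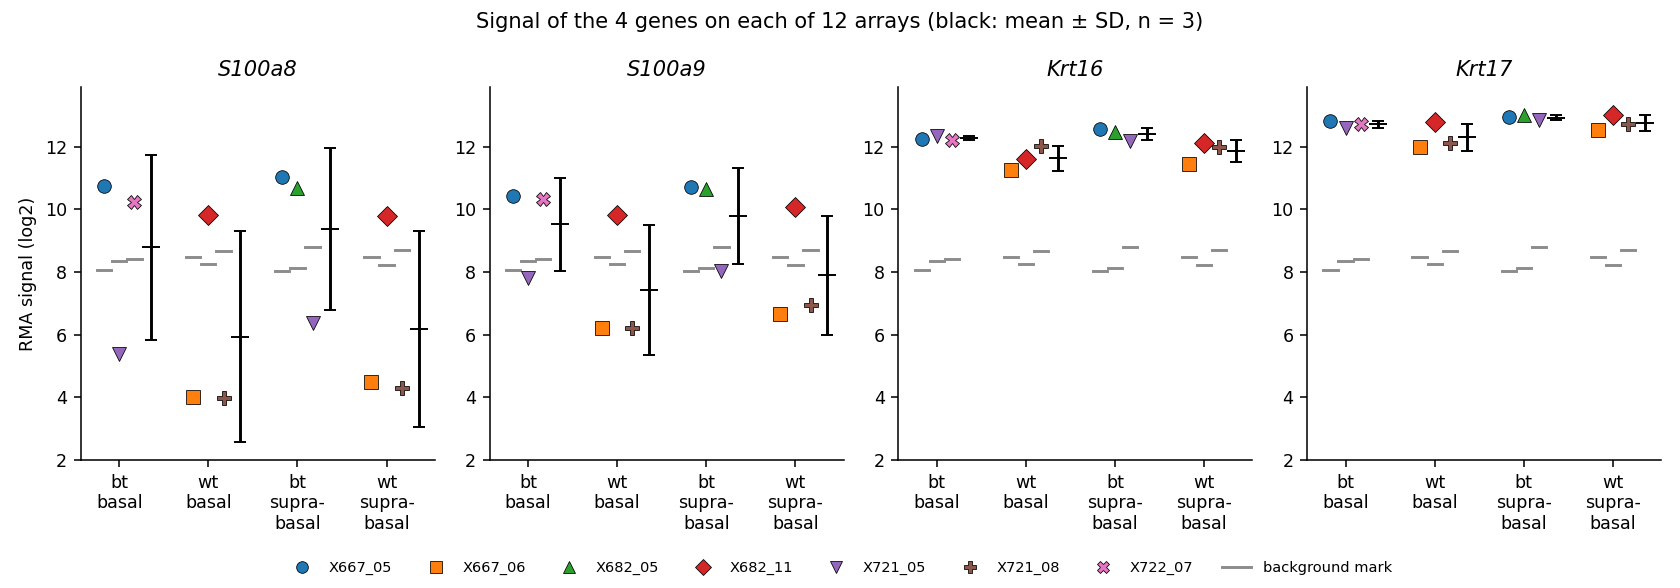
RMA signal (log2, vertical axis) of S100a8, S100a9, Krt16 and Krt17 on each array, by group, with symbols for the code in the array title, grey bars for the background mark of that array and black bars for the mean ± SD of 3 arrays. S100a8 and S100a9 fall into 2 sets that cut across the groups, while all Krt16 and Krt17 values lie well above the marks.

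The spread of S100a8 within groups, a standard deviation of 3.02 on the log2 scale over the 12 arrays, was the largest of all 65956 clusters, whose median was 0.12. S100a9 ranked 4 with 1.77. Xist, the X-inactivation RNA of female cells, ranked 2 with 2.72. Under array centring and cyclic loess the ranks of S100a8 and S100a9 were the same. Krt16 had a spread of 0.28, above that of 90.3% of clusters, and Krt17 had 0.26, above 88.7%. These ranks describe the choice of the genes and are not tested.

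**Figure D2:**
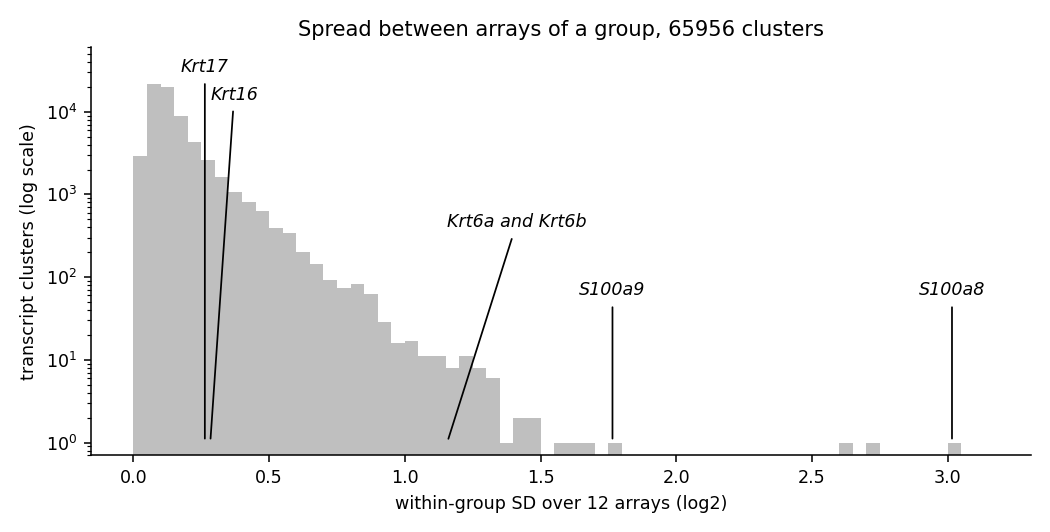
Histogram of the within-group standard deviation (log2, horizontal axis) of 65956 clusters, with the number of clusters on a log axis and lines to S100a8, S100a9, Krt16, Krt17 and the cluster shared by Krt6a and Krt6b. S100a8 lies at 3.02, the far right end, and Krt16 and Krt17 lie below 0.3.

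The level of S100a8 went with the code rather than with the layer. Its basal minus suprabasal difference was -0.28 for X667_05 and -0.99 for X721_05 among bt codes, and -0.47, 0.03 and -0.30 for X667_06, X682_11 and X721_08 among wt codes. Each of these is under 1 log2 unit, while arrays of different codes within a group lay up to 5.83 log2 units apart. S100a9 was lower in the basal array of all 5 codes, by 0.21 to 0.74. The share of all clusters lower in all 5 was not computed, so the count is only a description. Only X667_05 and X682_11 had both arrays above the background mark for S100a8 and S100a9. For X667_06, X721_05 and X721_08 both arrays were under it, so their layer differences compare signals at background.

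Other measures moved with the 2 sets of arrays, and their part in the S100a8 levels was not tested. Xist was at 10.69 to 11.08 with the Y-linked gene Ddx3y at 4.56 to 5.04 on 4 arrays, all bt, and all 4 were among the 6 highest in S100a8. On the other 8 arrays Xist was at 4.09 to 4.28 and Ddx3y at 8.0 to 8.60; these include the 6 lowest in S100a8 and both arrays of the wt code X682_11, which were high. The background marks were 8.04 to 8.42 on the 6 highest arrays and 8.34 to 8.81 on the 6 lowest. Within the arrays of the Ddx3y pattern, bt had 1 array per layer: S100a8 was 5.40 in the bt basal array, against 3.99 to 9.82 in wt, and 6.39 in the bt suprabasal array, against 4.29 to 9.79 in wt.

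Neutrophil RNA was looked for because neutrophils carry both alarmins. None of 10 neutrophil markers, among them Ly6g, Mpo, Elane and Cxcr2, was above the background mark on any array. Their summed unlogged signal was 448 to 464 in bt basal and 426 to 439 in wt basal arrays, and 447 to 458 in bt suprabasal and 455 to 468 in wt suprabasal arrays. None of the 6 measured macrophage and Langerhans cell markers or the 5 measured T cell markers was above the mark on any array either. The keratinocyte markers were all present: 6 of 6 basal and 6 of 6 suprabasal markers were above the mark on at least 1 array. Of the layer keratins, Krt5 and Krt14 of the basal layer and Krt1 and Krt10 of the suprabasal layers were above it on all 12 arrays, in both sorted fractions. In bulk RNA, fewer cells that express a gene and less RNA per cell cannot be told apart.

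The first question of the design is how bt cells differ from wt cells in each layer. In basal cells S100a8 averaged 8.79 ± 2.95 in bt and 5.94 ± 3.36 in wt arrays, and S100a9 averaged 9.52 ± 1.48 in bt and 7.42 ± 2.07 in wt arrays (SD, n = 3 each). The difference of S100a8 was 2.85 ± 2.14 (SE), with a 95% confidence interval of -1.88 to 7.58 and an adjusted p of 0.582 in limma. That of S100a9 was 2.11 ± 1.25, with an interval of -0.66 to 4.88 and an adjusted p of 0.487. These intervals include 0 and also differences of several log2 units, so the arrays settle neither. In suprabasal cells S100a8 averaged 9.37 ± 2.58 in bt and 6.19 ± 3.12 in wt arrays, a difference of 3.18 ± 2.14 with an adjusted p of 0.868. S100a9 averaged 9.79 ± 1.53 in bt and 7.89 ± 1.90 in wt arrays, a difference of 1.90 ± 1.25 with an adjusted p of 0.866.

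Single arrays decided the size of these differences. Without the wt array X682_11 the S100a8 difference was 4.79 in basal and 4.98 in suprabasal cells, and without the bt array X721_05 it was 4.54 and 4.67. Without the wt array X667_06 it was 1.89 in basal and 2.33 in suprabasal cells, without the wt array X721_08 it was 1.88 and 2.23, and without the bt basal array X667_05 it was 1.88. With a term for the Xist and Ddx3y pattern it was -0.33 in basal and -0.003 in suprabasal cells. Leaving out 1 array at a time, the S100a9 difference spanned 1.5 to 3.30 in basal and 1.27 to 2.99 in suprabasal cells, highest without X682_11 in both. With the term for the Xist and Ddx3y pattern it was 0.37 in basal and 0.16 in suprabasal cells. Genotype and this pattern are only partly separable here, since all 6 wt arrays share 1 pattern. With signals counted only above the background mark, the S100a8 difference was 0.97 in basal and 1.32 in suprabasal cells. The authors' deposited table gives bt over wt folds of 3.16 in basal and 4.11 in suprabasal cells for S100a8, and of 2.76 and 2.70 for S100a9, from means of unlogged signals. Those of the log2 means here were 7.21 and 9.06 for S100a8.

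The first number of the code gives another way to set bt beside wt, chosen after the values were seen. In 5 cases a bt and a wt array of 1 layer share it: X667 and X721 in basal cells, and X667, X682 and X721 in suprabasal cells. S100a8 was higher in the bt array in all 5 pairs, by 6.73 and 1.41 in basal and by 6.54, 0.90 and 2.10 in suprabasal cells. S100a9 was higher in all 5, by 4.19 and 1.60 in basal and by 4.06, 0.56 and 1.07 in suprabasal cells. Of all clusters, 4.76% were higher in bt in all 5 pairs. Only the X682 pair has both arrays above the background mark for S100a8 and S100a9. In the X667 pairs only the wt array is under its mark, so the size of the difference, though not its direction, rests on background. In the X721 pairs both arrays are under their marks, so size and direction rest on signals at background. The labels do not say what the number stands for. With it as a block, the S100a8 difference was 4.07 ± 1.43 in basal cells, with an adjusted p of 0.476 over 2 pairs, and 3.18 ± 1.15 in suprabasal cells, with an adjusted p of 0.598 over 3 pairs (limma).

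**Figure D3:**
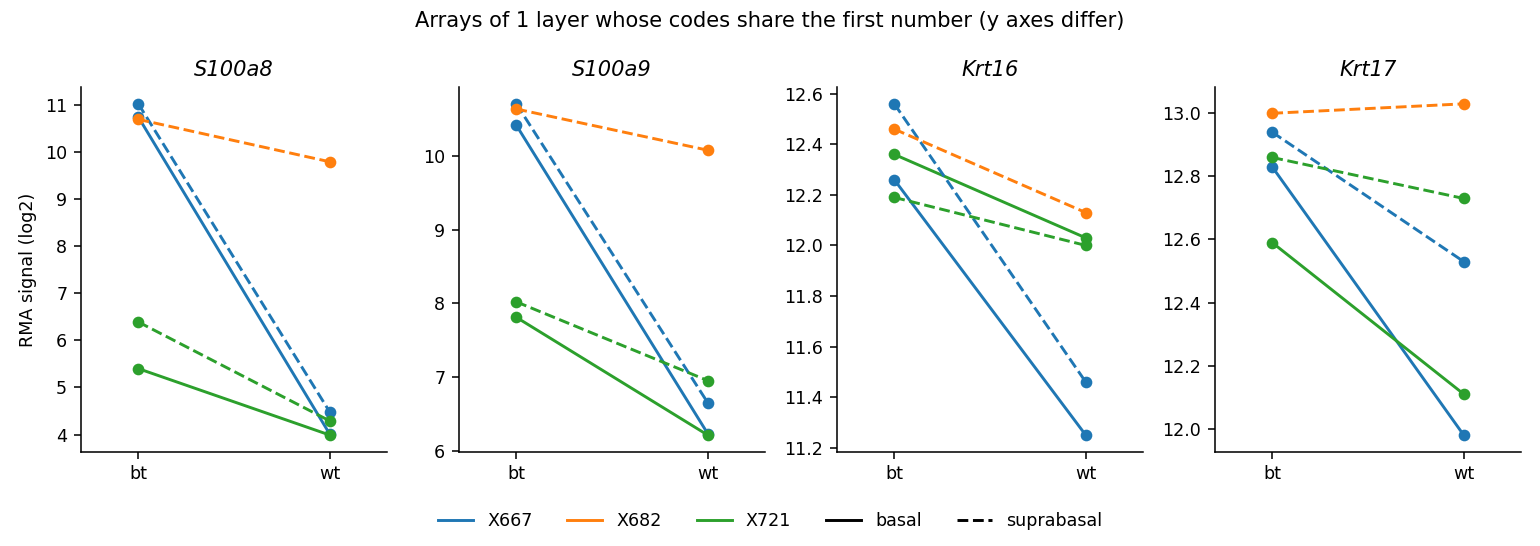
RMA signal (log2, vertical axis, a scale of its own in each panel) of S100a8, S100a9, Krt16 and Krt17 in the 5 pairs of a bt and a wt array that share the layer and the first number of the code, with colours for the number, solid lines for basal and dashed lines for suprabasal cells. The bt value is the higher in every pair for S100a8, S100a9 and Krt16, and in 4 of 5 pairs for Krt17.

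Krt16, whose human counterpart is mutated in pachyonychia congenita, did not fall into 2 separate sets of arrays as the alarmins did. Its cluster spans chr11:100246091-100248902 on the minus strand with 90 probes, and it was above background on all 12 arrays. It had signals of 12.26, 12.36 and 12.22 in bt basal arrays, against 11.25, 11.61 and 12.03 in wt basal arrays. It had 12.56, 12.46 and 12.19 in bt suprabasal arrays, against 11.46, 12.13 and 12.00 in wt suprabasal arrays. Every bt array was above every wt array in each layer, and in fact all 6 bt values exceeded all 6 wt values. The nearest were 12.19 in the bt suprabasal array X721_05 and 12.13 in the wt suprabasal array X682_11. Within a layer, every bt array was above every wt array in 11.8% of clusters in basal and in 2.52% in suprabasal cells. This held in each of the layers for 0.323% of clusters. The share of clusters with all 6 bt values above all 6 wt values was not computed.

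In basal cells Krt16 averaged 12.28 ± 0.07 in bt and 11.63 ± 0.39 in wt arrays, a difference of 0.65 ± 0.21 (SE, 95% interval 0.20 to 1.10, 1.57-fold). Its unadjusted limma p was 0.00942 and its adjusted p 0.263. In suprabasal cells Krt16 averaged 12.40 ± 0.19 in bt and 11.86 ± 0.36 in wt arrays, a difference of 0.54 ± 0.21 (1.45-fold). Its unadjusted p was 0.0241 and its adjusted p 0.866. Krt16 therefore did not pass the test over all clusters in either layer. The wt array X667_06 held the lowest value in both layers; without it the differences were 0.46 in basal and 0.34 in suprabasal cells. With a term for the Xist and Ddx3y pattern they were 0.58 and 0.47. Krt16 was higher in bt in all 5 pairs of the same first number, by 1.01 and 0.33 in basal and by 1.10, 0.33 and 0.19 in suprabasal cells.

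Krt17, a keratin of wounded epidermis and of hair follicles, lies 7.3 kb from Krt16, at chr11:100256217-100261029 on the minus strand, and is read by 92 probes. It had signals of 12.83, 12.59 and 12.73 in bt basal arrays, against 11.98, 12.80 and 12.11 in wt basal arrays. It had 12.94, 13 and 12.86 in bt suprabasal arrays, against 12.53, 13.03 and 12.73 in wt suprabasal arrays. The groups overlapped in both layers, through the wt code X682_11, which had 12.80 in basal and the highest value of all, 13.03, in suprabasal cells. The basal difference was 0.42 ± 0.19 (95% interval -0.004 to 0.84), with an adjusted p of 0.385. The suprabasal difference was 0.17 ± 0.19, with an adjusted p of 0.90. The basal difference was 0.67 without the wt array X682_11 and 0.67 ± 0.13 over the 2 basal pairs of the same first number. It was 0.26 without the wt array X667_06, 0.33 without X721_08 and 0.32 with a term for the Xist and Ddx3y pattern. The suprabasal difference was 0.05 without the wt array X667_06, 0.30 without X682_11 and 0.07 with that term.

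Hair follicles express Krt16 and Krt17 without injury, so follicle markers were read beside them. Of 8 markers, 3 were above the mark on all 12 arrays and 5 on none. Their summed unlogged signal was 6310 to 6494 in bt basal and 5837 to 10800.4 in wt basal arrays. It was 7058 to 8794 in bt suprabasal and 9857 to 13412 in wt suprabasal arrays. The 3 detected markers differed by -1.32 (Krt15), -0.24 (Sox9) and -0.05 (Krt79) on the log2 scale between bt and wt suprabasal cells, none past the test, so the sum moved mainly with Krt15. Their part in the keratin levels was not tested.

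In both genotype comparisons 0 of the 4 genes were called by limma at an adjusted p under 0.05, where 0% of all clusters were called in basal and 0% in suprabasal cells. At an unadjusted p under 0.05 it was 1 gene in each, Krt16, where 13.1% of clusters passed in basal and 5.22% in suprabasal cells. The unpaired 2-sided test that the design names also called 0. The differences between the layers in the effect of genotype were -0.33 for S100a8, 0.21 for S100a9, 0.11 for Krt16 and 0.25 for Krt17, with adjusted p between 0.774 and 0.98 (limma interaction; 0% of clusters called, 10.2% at an unadjusted p under 0.05, 0 of the 4 genes at either).

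The second question is how basal cells differ from suprabasal cells of 1 genotype. The layer keratins themselves did not pass the test between wt layers (limma adjusted p between 0.231 and 0.916). Basal minus suprabasal was 0.34 for Krt5, 0.27 for Krt14, -0.06 for Krt1 and -0.17 for Krt10. The median wt difference was 0.59 over the 6 basal markers and -0.49 over the 6 suprabasal markers, with 0 called. Krt17 was lower in basal cells in each of the 5 codes with both layers, by 0.11 and 0.27 in bt and by 0.55, 0.23 and 0.62 in wt. The share of all clusters lower in all 5 codes was not computed, so this count is only a description. It averaged 12.30 ± 0.44 in wt basal and 12.76 ± 0.25 in wt suprabasal arrays, a difference of -0.47 ± 0.19 with an unadjusted p of 0.0339 and an adjusted p of 0.182. With the code as a fixed replicate block it was -0.47 ± 0.10, with an adjusted p of 0.0724 in limma. With the code as a random block it was -0.47 ± 0.17, with an adjusted p of 0.113. In bt it averaged 12.72 ± 0.12 in basal and 12.93 ± 0.07 in suprabasal arrays, a difference of -0.22 with an adjusted p of 0.839. The bt layers did not overlap in Krt17, with basal below suprabasal in every array, as in 4.27% of clusters. S100a9, at -0.48 in wt, had an adjusted p of 0.849 in limma, of 0.0804 with the fixed block and of 0.807 with the random block. Both S100a9 arrays of X667_06 and of X721_08 were under the background mark. With signals counted only above the mark the wt layer difference of S100a9 was -0.103.

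Krt16 differed between layers by -0.23 in wt and -0.12 in bt, and S100a8 by -0.25 in wt and -0.58 in bt, with adjusted p between 0.525 and 0.973. Limma called 0 of the 4 genes between the wt layers, where 1.45% of all clusters were called, and 0 between the bt layers, where 0% were. At an unadjusted p under 0.05 it was 1 gene, Krt17, in wt, where 22.8% of clusters passed, and 0 in bt, where 7.45% passed, and the test that the design names called 0 in both.

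**Figure D4:**
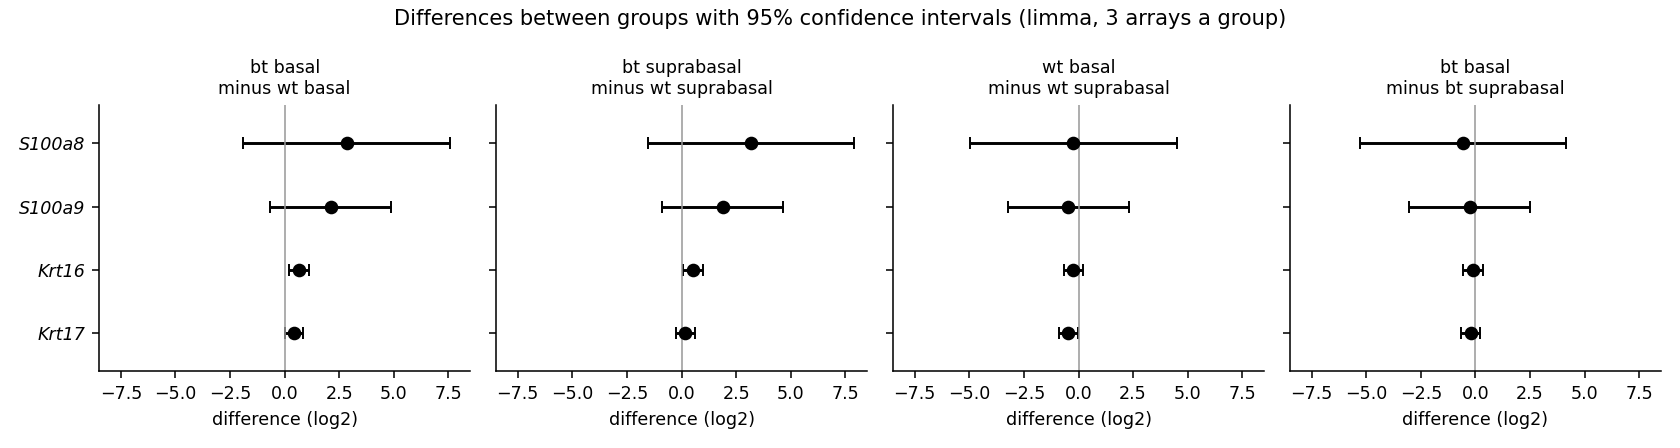
Differences between groups (log2, horizontal axis) of S100a8, S100a9, Krt16 and Krt17 from the limma fit, with bars for the 95% confidence interval, in the 4 pairwise comparisons. The intervals of S100a8 and S100a9 span several log2 units and include 0 in every panel, while those of Krt16 lie above 0 in both genotype panels before adjustment for the number of clusters.

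The type II partners Krt6a and Krt6b share 1 cluster, at chr15:101676023-101694307 on the minus strand with 220 probes, so they cannot be told apart. It had 12.06, 10.30 and 11.52 in bt basal arrays, against 9.37, 11.73 and 9.04 in wt basal arrays. It had 12.50, 12.53 and 11.02 in bt suprabasal arrays, against 10.13, 12.39 and 10.23 in wt suprabasal arrays. The high arrays were again those high in S100a8, and the groups overlapped. The bt minus wt difference was 1.25 ± 0.82 in basal cells (adjusted p 0.528) and 1.10 ± 0.82 in suprabasal cells (adjusted p 0.869). The shared cluster was lower in the basal array of all 5 codes, by 0.44 to 1.19, a count for which no share over all clusters was computed.

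How closely genes followed the alarmins was measured by r, the Pearson correlation of deviations from group means over the 12 arrays of 7 codes. It is given with no p, since arrays of 1 code are not independent and the 2 sets of arrays dominate it. With the mean of S100a8 and S100a9, the Krt6a and Krt6b cluster had r = 0.985 and Krt17 had r = 0.852. Leaving out each code in turn gave 0.976 to 0.993 and 0.684 to 0.936. Krt16 had r = 0.285, which was -0.091 without X667_06 and 0.730 without X721_08. Within the 6 arrays highest in S100a8, the signals of Krt16, with group differences left in, correlated with those of S100a8 at 0.82 and with those of S100a9 at 0.96. Within the 6 lowest these values were 0.60 and 0.72, with both alarmins under the mark. Within the 6 highest, Krt17 correlated with S100a8 at 0.12 and with S100a9 at 0.28. The Krt6a and Krt6b cluster did so at 0.46 and 0.55. Within the 6 lowest it was 0.74 and 0.83 for Krt17, and 0.87 and 0.89 for that cluster. These values within 6 arrays use signals and not deviations, and S100a8 spans only 9.79 to 11.02 on the 6 highest. They are therefore not comparable with r. Whether the high r of Krt17 and of that cluster holds where the alarmins were detected is not settled by them. Krt16 and Krt17 had r = 0.342 with each other although they are neighbours of 1 keratin family.

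Of 3582 named genes compared, 2.903% had r of at least 0.9 with the alarmins. Among the 5 highest, 4 are reported here: Gjb2 (0.977), which encodes a connexin, a gap junction protein, Capn2 (0.974), a calcium-dependent protease, Nfx1 (0.970) and Grpel1 (0.970), a co-chaperone of protein import into mitochondria. Gjb2 had signals of 9.23, 8.02 and 8.90 in bt basal arrays, against 7.74, 8.67 and 7.43 in wt basal arrays. It had 9.53, 9.51 and 8.80 in bt suprabasal arrays, against 8.15, 9.18 and 7.96 in wt suprabasal arrays. In each group the array or arrays high in S100a8 were also the higher in Gjb2. Gjb2 and Nfx1 were above their background mark only on the 6 arrays high in S100a8. The marks were mostly lower on these arrays, at 8.04 to 8.42, against 8.34 to 8.81 on the 6 lowest. A Nfx1 signal of 8.46 was thus above the mark of 8.12 on bt suprabasal X682_05. The same signal was under the mark of 8.49 on wt basal X667_06. The mean signal by which genes entered the comparison also takes in the arrays high in S100a8. The signals of Nfx1 and Grpel1 spanned only 0.47 and 0.58 log2 units. Krt17 was followed most closely by Wdr74 (0.968), Adrm1 (0.967), a ubiquitin receptor of the proteasome, Rab38 (0.965), Wdr1 (0.961), which helps disassemble actin filaments, and Rcc2 (0.956). Among these genes, which leave out predicted models, Krt16 had 1 at 0.9 or above, Sptlc2 (0.914), a subunit of the enzyme that starts sphingolipid synthesis. It was followed by Pigq (0.898), Ppp1ca (0.887), Bdh1 (0.886) and Sec24c (0.868).

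Genes of 8 lists around calprotectin and stress keratins were then read, 48 of which were above the mark on at least 1 array. Of these, 6 had r of at least 0.9 with the alarmins and 1 had r of -0.9 or below. The 6 were Stat3 (0.954), a transcription factor of cytokine signalling, Ccl20 (0.944), a chemokine that attracts T cells and dendritic cells, Sprr2h (0.930) and Sprr2d (0.906), cornified envelope proteins, Tgfa (0.929), a ligand of the EGF receptor, and Nfe2l2 (0.912), a transcription factor of the oxidative stress response. They were singled out after their values were seen. This filter is not independent of the pattern, since a gene can pass it through the arrays high in S100a8 alone, so the count supports nothing. By the mean over all 12 arrays, 34 listed genes were above background, of which 3, Stat3, Ccl20 and Nfe2l2, had r of at least 0.9 and Krt10 had r below -0.9. That mean also takes in the arrays high in S100a8, so a gene can pass through them, and this count supports nothing either. Ccl20 had 10.59, 9.62 and 10.42 in bt basal arrays, against 7.72, 9.94 and 7.29 in wt basal arrays, and its difference of 1.89 ± 0.73 had an adjusted p of 0.327. Stat3 moved over a far narrower range, 10.03 to 10.51.

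The gene with r below -0.9 was Krt10 (-0.938), the type I keratin of suprabasal epidermis. It had 12.91, 13.16 and 12.81 in bt basal arrays, against 13.30, 12.60 and 13.37 in wt basal arrays. It had 13.16, 12.99 and 13.36 in bt suprabasal arrays, against 13.41, 12.87 and 13.50 in wt suprabasal arrays. In every group the arrays high in S100a8 were the lower in Krt10. Its partner Krt1 had r = -0.872, and -0.650 without X682_11. Neither passed the test between genotypes or layers (adjusted p between 0.675 and 1.0).

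**Figure D5:**
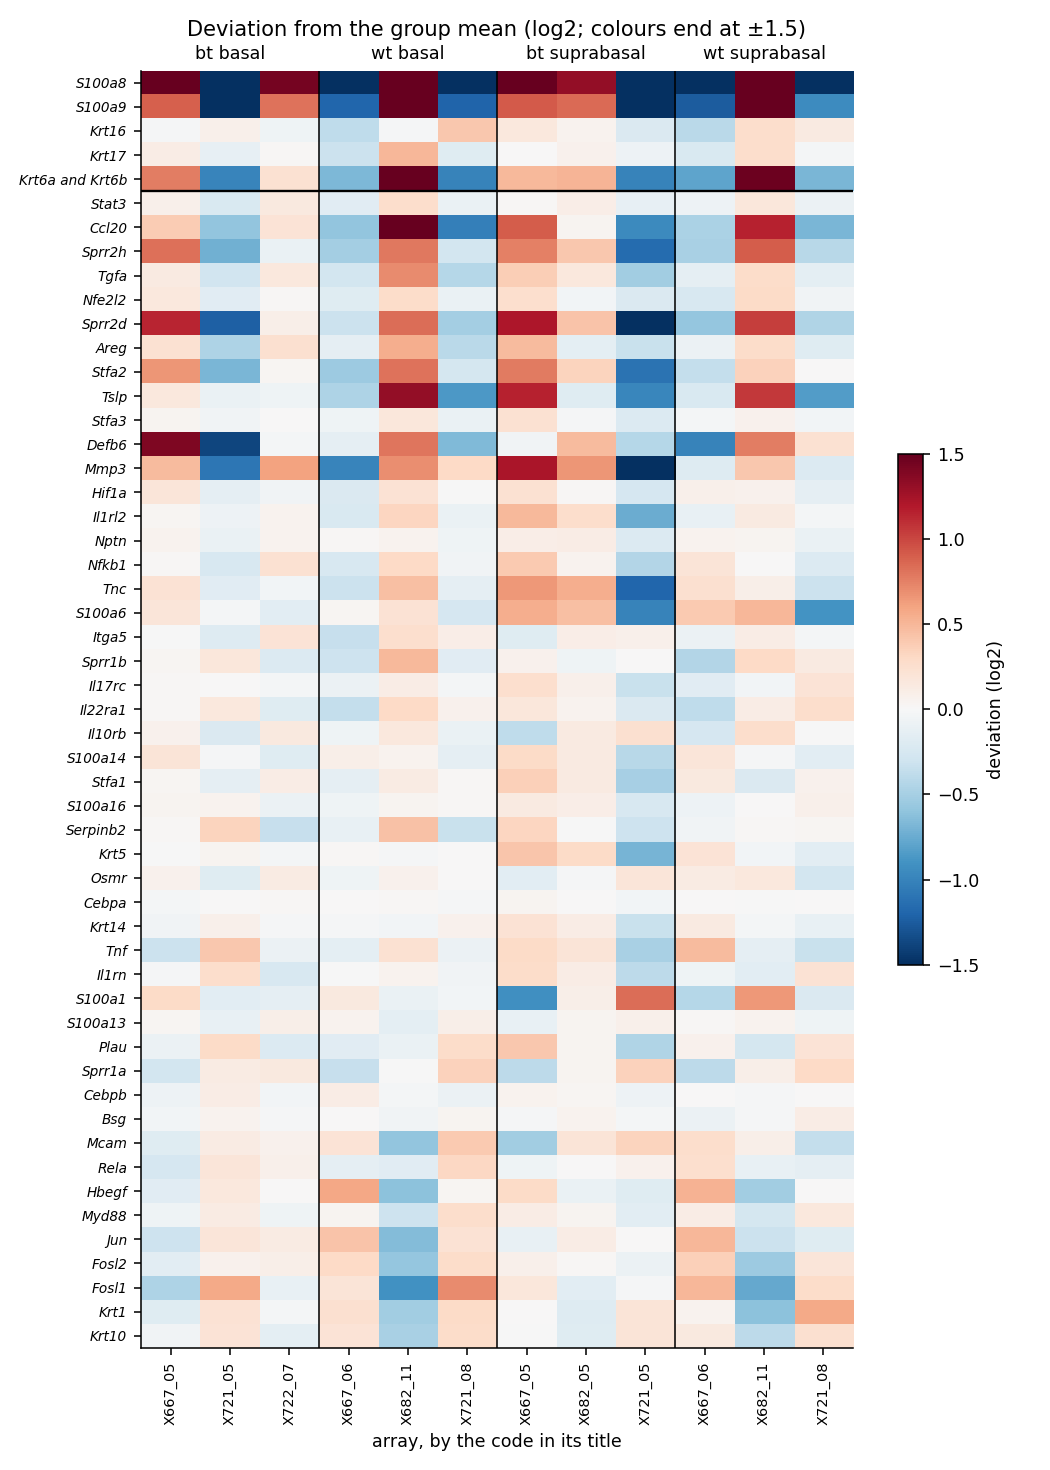
Deviation of each array from its group mean (log2, colour, red above and blue below, ending at ±1.5) for the 4 genes and the Krt6a and Krt6b cluster, above the line, and for 48 listed genes above background on at least 1 array, below it and sorted by r with the alarmins. The columns X722_07, X682_11, X667_05 and X682_05 are red for S100a8 and S100a9, and Krt10 at the bottom has the opposite colours.

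Proteins that can bind extracellular S100a8 or S100a9 differed in whether they were detected. Tlr4, the receptor of innate immunity, spanned 4.02 to 4.44, and Ager, the receptor for advanced glycation end products, 7.05 to 7.35; neither was above the mark on any array. Of the 10 genes of the receptor list, 4 were above the mark on at least 1 array: Bsg, Mcam, Nptn and the adaptor Myd88. Bsg, also called basigin or CD147, binds S100a9 in human cells; it had 10.96 to 11.20 on all arrays. None of the 10 passed the test in any comparison.

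No gene passed the test between genotypes in any of the 8 lists. Between wt layers, limma called 1 of the 87 measured genes of these lists (1.15%, against 1.45% of all clusters), Sprr1a, a cornified envelope precursor of wounded and differentiating epidermis. It had 7.26, 7.59 and 7.95 in wt basal arrays, against 8.62, 9.11 and 9.32 in wt suprabasal arrays, a difference of -1.42 ± 0.24 with an adjusted p of 0.0377. The test that the design names called 0 clusters there. Limma also called 0 clusters there without the bt basal array X721_05, the wt basal array X721_08, or the wt suprabasal array X682_11 or X721_08. The median difference of the 19 genes of its list, of wound edge and hyperproliferation, was 0.01, against -0.05 over all clusters. Among marker lists of other cells, all 5 melanocyte genes were called lower in wt basal cells, as was Krt79 of the hair follicle and sebaceous duct. Vim of the fibroblast list was called lower too. The other 3 measured genes of that list, Col1a1, Col1a2 and Col3a1, were above the mark on no array. The part of the called marker genes in the layer differences of Krt17 was not tested.

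Genes that lie beside the alarmins were mostly under background. Within 100 kb of S100a8 or S100a9 there were 7 other genes measured, of the S100 family and Pglyrp4, with within-group standard deviations of 0.08 to 0.60. Of these, 6 were above the mark on no array, so their small spread says little. S100a6 was above it on 8 of 12 arrays; its standard deviation of 0.60 exceeded that of 98.8% of clusters, and it had r = 0.608 with S100a8 and r = 0.587 with S100a9. In the list of other S100 genes, 7 of 12 measured were above the mark on no array, while S100a14 and S100a16 were above it on all 12, at 9.29 to 10.14 and 9.93 to 10.31. Beside Krt16 and Krt17 there were 10 other genes within 100 kb, with standard deviations of 0.08 to 0.25. The highest was Gm11597, annotated as a pseudogene 14 kb from Krt16, with signals of 10.75 to 12.02 and r = 0.973 with Krt16. Whether its probes also bind Krt16 transcripts was not tested.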

How the data were processed

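Keratinocyte RNA of 12 arrays in 4 groups was analysed; groups came from the sample titles. The authors deposited a log2 signal for each transcript cluster; Expression Console (Affymetrix) and RMA are named in the submitters' processing notes. They also deposited signed fold changes between groups, per the file headers. Per the file headers, clusters were annotated with NetAffx build 34 for mm10. RMA quantile normalization gives all arrays nearly 1 distribution, so a change common to most transcripts would not show. Both deposited tables hold the same signals (largest difference 0).

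Of 72688 rows, 6732 (9.262%) were control sets and were dropped, and the 65956 clusters kept were not filtered by brightness. By the platform annotation, 30638 clusters have 1 symbol, 2176 have several and 32473 have none, and 669 were named from the deposited file. Promoters came from RefSeq (GRCm38.p6).

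A single limma fit of 4 group means to 12 arrays gave every comparison, with Benjamini-Hochberg adjustment over all clusters and a threshold of 0.05. It was tested on simulated data. The background mark is the 95th percentile of 5222 intronic control sets on each array, a rule set after values were seen. Array number limits the precision.

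The 4 genes, the gene lists and the alternatives were chosen with earlier results of these data known. Named genes are the 4 members, the 5 genes most like the alarmins, Krt16 and Krt17 by r, without predicted, microRNA, olfactory, vomeronasal and ribosomal protein models, Krt6a, Krt6b, Tlr4 and Ager, and called list members; 1 gene the rule selects is not reported here. Other genes named (listed genes and neighbours such as Stat3, Ccl20, Krt10, Bsg, S100a6 and Gm11597, and markers) fall outside this rule and were chosen after their values were seen. For r, genes had to have a mean signal above the same percentile of the control means.

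The codes were read as pairing the arrays of the layers, which the labels do not state. Deviations of the same code correlated at 0.269, 0.534 and 0.370 in wt and at 0.241 and 0.136 in bt. For different codes the medians were -0.254 in wt and -0.117 in bt. Deviations of the 3 arrays of a group sum to 0, so these medians are tied to the same-code values and are not an independent contrast. In bt, 2 pairs of different codes, at 0.189 and 0.232, were above the lower same-code value, so the pairing is less clear there. Arrays of both genotypes that share the first number correlated at 0.308 to 0.485 in 3 suprabasal pairs, and at -0.157 and 0.229 in 2 basal pairs.

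Alternatives were array centring, cyclic loess, clusters above the median, trend and robust moderation, array weights, code and first-number blocks, only the groups compared, the Student test of the design, a term for the Xist and Ddx3y pattern and leaving out arrays in turn. Chosen after seeing the data were signals above the mark and a fixed block of the first number. Tools were Python 3.11.15 with pandas 2.3.3, numpy 2.4.6, scipy 1.17.1 and matplotlib 3.10.9, and R 4.3.3 with limma 3.58.1 and data.table (version 1.17.8).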

Additional observations from a re-analysis of the deposited data

How the results depend on the processing

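Across 468 recomputed differences of the 4 genes, 0 were called, and the lowest adjusted p was 0.0724, for Krt17 between wt layers with the code as a fixed replicate block. In 29 of them the direction turned. With the term for the Xist and Ddx3y pattern, the bt minus wt difference of S100a8 was -0.333 in basal and -0.003 in suprabasal cells. With signals above the background mark, the S100a9 interaction was -0.207. The other reversals came from leaving out single arrays. The layer difference of S100a8 then spanned -2.187 to 1.555 in wt and -2.065 to 1.118 in bt, and that of S100a9 -1.673 to 0.617 in wt and -1.152 to 0.59 in bt. The interaction spanned -2.132 to 1.61 for S100a8, -0.883 to 1.407 for S100a9 and -0.08 to 0.312 for Krt16. The causes were not tested. The bt minus wt differences of S100a9, Krt16 and Krt17 were positive under all these alternatives, from 0.155 to 3.303, from 0.338 to 0.85 and from 0.053 to 0.672. Between wt layers, limma called 957 clusters in the fit as designed, and 0 with the Student test or with signals above the mark, 4 with only the groups compared, 262 with cyclic loess, 342 with array centring and 476 with trend and robust moderation. It called 1520 among clusters above the median, 1860 with array weights, 2147 with the first number as a random block and 3600 with a random block for the code. Leaving out 1 array, it spanned 0 (without bt basal X721_05, wt basal X721_08, wt suprabasal X682_11 or wt suprabasal X721_08) to 2903 (without bt suprabasal X721_05). The count was 9 without bt suprabasal X682_05, 30 without wt basal X682_11 and 131 without bt basal X722_07. In the basal genotype comparison it was 87 without wt basal X667_06, and between bt layers 126 without bt suprabasal X667_05, against 0 with all arrays. The replicate block changed no call of the 4 genes. Other clusters of the 4 symbols could not be tried, as each has 1. Where S100a8 and S100a9 lie under the background mark, differences in true level are not resolved.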
